A study of Mus musculus with 18 samples.

Results

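The 10 genes described here encode chaperones of the endoplasmic reticulum and the proteins that sense unfolded protein in it: the chaperones Hspa5, Hsp90b1, Calr, Pdia4, Dnajb9 and Sdf2l1, the sensors Ern1 and Atf6, the transcription factor Xbp1 and the degradation factor Herpud1. They were taken from a named list, each represented by the brightest of the probe sets that carry its symbol alone in the platform annotation, and all 10 were found among 18193 genes measured. RNA was measured on Affymetrix 3' expression arrays, 1 array per sample, in 6 cobalt tumours, 6 spontaneous tumours and 6 control lungs of B6C3F1/N mice. Cobalt tumours are lung tumours labelled as cobalt treated, from a study in which mice breathed cobalt metal particles at up to 5 mg/m3, with exposures of 6 hours on 5 days of each week for at most 105 weeks. Spontaneous tumours are lung tumours labelled so, with no exposure given, and control lungs are labelled vehicle control. Mice of all groups were 5 to 6 weeks old at the start and had the same housing and diet. Tumours were cut out of the surrounding lung, whereas a control sample is lung with all its cell types. The labels give no dose, sex or age at death for an array and do not state that each array is a different mouse, so that the spread behind the p-values is that between arrays and may be technical. All values are log2 levels made by the authors with RMA, a method that subtracts background, gives the arrays a common distribution and combines probes into 1 value per probe set. The number of arrays limits the precision.

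Proteins that are secreted or sit in membranes fold in the endoplasmic reticulum with the help of chaperones, and those that fail to fold are returned to the cytosol and degraded. When unfolded protein builds up, the membrane sensors IRE1 (gene Ern1), ATF6 and PERK (gene Eif2ak3) start the unfolded protein response, which raises the transcription of chaperone and degradation genes. IRE1 is a kinase and nuclease that splices Xbp1 RNA into a form encoding an active transcription factor, and ATF6 is carried to the Golgi and cut there to release a transcription factor. In the lung, alveolar type 2 cells, which secrete surfactant, club cells and plasma cells carry a large secretory load.

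Some arrays stood apart. Over all probe sets cobalt tumour 6 had a mean r of 0.953 with its own group and 0.971 with the control lungs. Spontaneous tumours 2 and 6 had the highest values of the second principal component, and the free-text description of control 6, unlike its title, source and group, names a spontaneous tumour. The X-inactivation RNA was high on 4 cobalt tumour arrays, 2 spontaneous tumour arrays and all 6 control arrays. Y-linked RNA had a mean of 3.91 to 4.12 on these arrays, the pattern of females. On the remaining tumour arrays it had a mean of 7.48 to 8.27, the pattern of males. Sex is thus unbalanced between the groups, and in part cannot be told apart from the difference between tumour and control lung. Results were therefore also computed without each array, without spontaneous tumours 2 and 6, and on the arrays with high X-inactivation RNA alone. The tissue label was checked on lung markers, for which the mean level of the alveolar type 2 list, surfactant genes included, lay 0.75 to 0.93 above the control mean in cobalt tumours and -0.46 to 1.09 relative to it in spontaneous tumours.

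Promoters of 9 of the 10 genes were matched in a RefSeq table (GRCm38.p6), and 4 of them hold an element through which the unfolded protein response is known to act. The endoplasmic reticulum stress element (ERSE, the letters CCAAT and CCACG with 9 bases between them) and its short form (ERSE-II, ATTGG and CCACG with 1 base between them), both known to be bound by ATF6, and the unfolded protein response element (UPRE, TGACGTGG), known to be bound by XBP1, were searched on both strands of the 250 bases before each start. ERSE was found in 3 of the 9 genes and in 0.113% of 32851 promoters, ERSE-II in 1 of 9 and in 0.0304%, and UPRE in 0 of 9 and in 0.563%. No window of the 9 held exact matches to both ERSE and ERSE-II, although the letters of the 2 elements overlap. The promoters with a match are shown with the fixed letters of the element in capitals, read along the gene's strand, because these genes can be set beside the changes in their RNA given further on.
Hspa5: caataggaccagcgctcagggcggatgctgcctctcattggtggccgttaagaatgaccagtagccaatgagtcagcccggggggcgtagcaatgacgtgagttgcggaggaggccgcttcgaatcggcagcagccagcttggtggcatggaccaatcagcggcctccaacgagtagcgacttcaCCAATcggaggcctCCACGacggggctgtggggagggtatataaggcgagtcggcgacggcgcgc
Hsp90b1: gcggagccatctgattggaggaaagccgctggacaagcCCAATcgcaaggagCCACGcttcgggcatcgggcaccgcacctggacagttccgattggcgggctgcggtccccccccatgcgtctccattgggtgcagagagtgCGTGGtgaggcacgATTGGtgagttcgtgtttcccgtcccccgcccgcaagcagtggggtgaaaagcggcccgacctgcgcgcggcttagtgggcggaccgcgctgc
Calr: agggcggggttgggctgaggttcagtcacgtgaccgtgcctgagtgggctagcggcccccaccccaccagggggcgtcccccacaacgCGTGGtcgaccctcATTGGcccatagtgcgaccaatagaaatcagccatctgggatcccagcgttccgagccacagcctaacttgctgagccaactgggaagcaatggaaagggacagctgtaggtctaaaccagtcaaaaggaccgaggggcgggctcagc
Herpud1: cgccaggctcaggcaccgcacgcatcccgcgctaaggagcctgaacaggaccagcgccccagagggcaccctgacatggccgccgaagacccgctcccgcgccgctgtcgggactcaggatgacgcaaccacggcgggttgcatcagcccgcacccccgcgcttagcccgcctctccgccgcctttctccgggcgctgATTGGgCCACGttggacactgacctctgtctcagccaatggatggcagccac
The Hspa5 window is chr2:34771840-34772089 (plus strand), with its element 65 to 47 bases before the start. The Hsp90b1 window is chr10:86705445-86705694 (minus strand) and holds an ERSE 212 to 194 bases before the start and an inverted one 107 to 89 bases before it. The Calr window is chr8:84846932-84847181 (minus strand), with an inverted ERSE 162 to 144 bases before the start, and the Herpud1 window is chr8:94386179-94386428 (plus strand), with an ERSE-II 52 to 42 bases before it. A match is a description of letters and does not show that a factor binds there. Pdia4 and Ern1, which rose in tumours, hold no exact match to these elements in the same window, and neither do Dnajb9, Sdf2l1 and Xbp1, which were not called. With up to 1 mismatch allowed, Pdia4 holds 1 match to ERSE, Sdf2l1 holds 1 to ERSE-II and 1 to UPRE, and Ern1, Dnajb9 and Xbp1 hold 0. Hspa5 and Herpud1 then also hold 1 match each to UPRE, Hspa5 holds 1 to ERSE-II, and Hsp90b1 holds 3 to ERSE. The share of all promoters with a match at up to 1 mismatch was not computed, so that it is unknown how common such matches are. Whether an element goes with a change in RNA was not tested.
Pdia4: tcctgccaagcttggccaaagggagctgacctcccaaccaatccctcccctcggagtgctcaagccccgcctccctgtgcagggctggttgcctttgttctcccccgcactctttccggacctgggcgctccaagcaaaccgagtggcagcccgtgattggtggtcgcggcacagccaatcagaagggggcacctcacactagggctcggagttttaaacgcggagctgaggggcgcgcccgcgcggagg
Ern1: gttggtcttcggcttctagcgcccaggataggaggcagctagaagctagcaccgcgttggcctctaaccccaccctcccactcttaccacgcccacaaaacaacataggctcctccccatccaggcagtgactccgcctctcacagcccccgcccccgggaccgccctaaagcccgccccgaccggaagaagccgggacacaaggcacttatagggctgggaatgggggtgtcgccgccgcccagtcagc
The Pdia4 window is chr6:47813513-47813762 (minus strand) and the Ern1 window is chr11:106487797-106488046 (minus strand).

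Compared with control lung, the main chaperones Hspa5 and Hsp90b1 did not pass the test in either kind of tumour, while the sensor Ern1 and the disulfide isomerase Pdia4 rose in both and the brightest Atf6 probe set fell in both. The brightest of 3 Calr probe sets was also lower in cobalt tumours, by limma but not by the exact permutation test. The Ern1 call in spontaneous tumours was lost in 6 of 18 fits with 1 array left out and in 3 of 11 other settings. In cobalt tumours 2 of the 10 genes were called higher and 2 lower at a limma adjusted p under 0.05 (40.0% of them, against 34% of all genes), with a median log2 difference of -0.06, against -0.03 over all genes. In spontaneous tumours 2 were called higher and 1 lower (30.0%, against 34.6% of all genes), with a median of -0.08, against -0.03 over all genes. Either share is near that of all genes, but the 10 genes are bright, with 72.0% to 99.6% of genes dimmer. Without the 6064 dimmest genes, limma called 5424 genes in cobalt tumours and 5441 in spontaneous tumours, against 6183 and 6295 of all 18193. The share called is thus larger among brighter genes than among all genes. The levels on all arrays show Pdia4 and Ern1 of the cobalt tumours above all control lungs. An array reads the pooled RNA of whatever cells a sample holds, so that fewer cells of a type and less RNA per cell cannot be told apart.

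**Figure D1:**
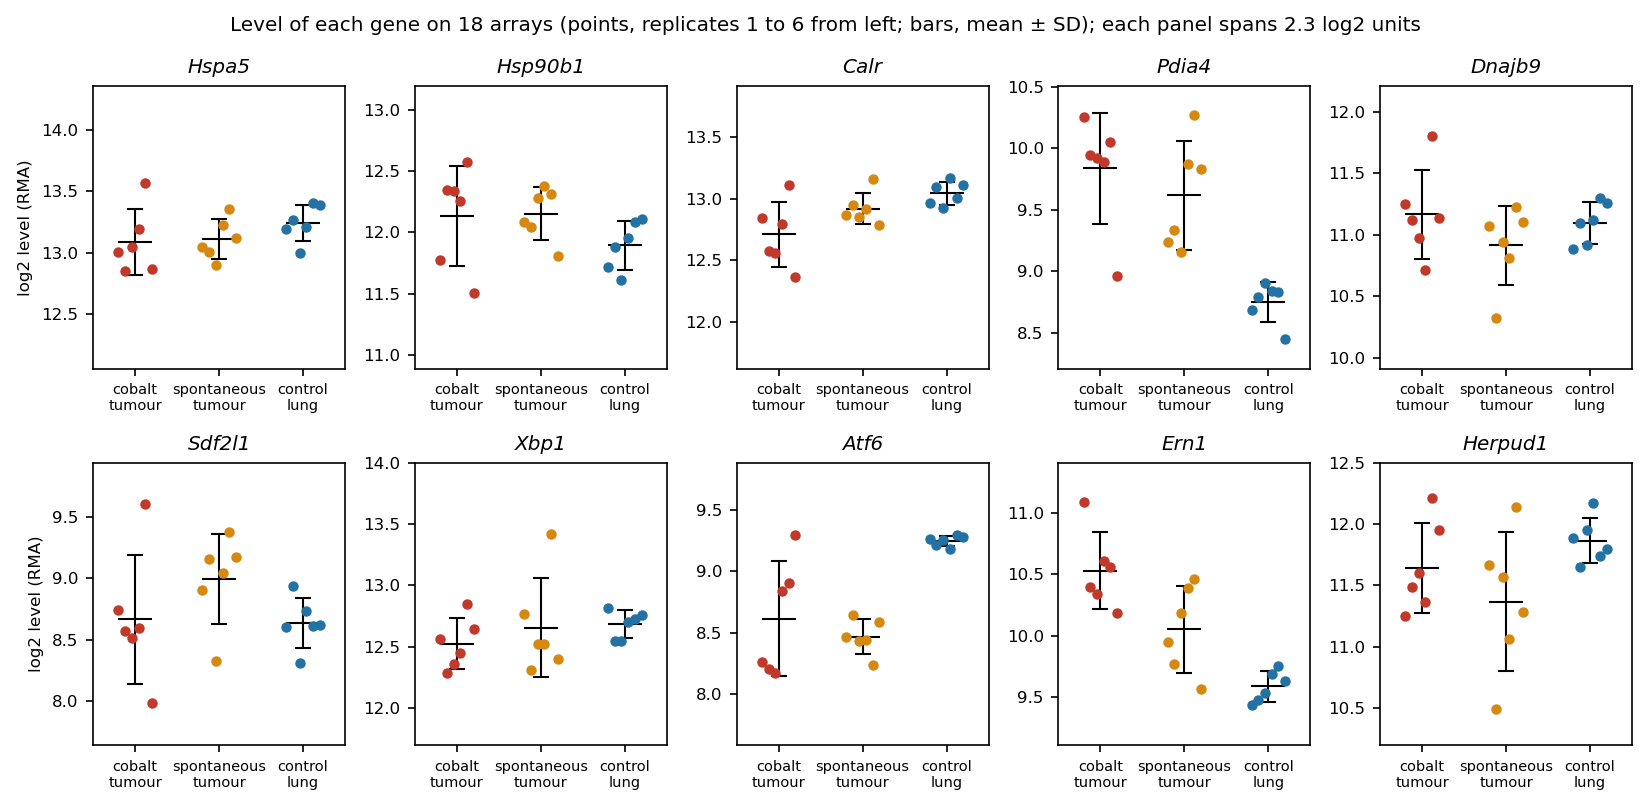
Log2 level of the 10 genes on each array of the cobalt tumours, spontaneous tumours and control lungs (points), with the mean and SD of each group (n = 6 each). Panels have their own position on the level axis but the same span. Pdia4 lies above all control lungs on all 12 tumour arrays, while Hspa5 and Xbp1 overlap between the groups.

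Ern1 encodes IRE1, the sensor that splices Xbp1 RNA. It lay between 10.19 and 11.09 in cobalt tumours (median 10.48), between 9.57 and 10.46 in spontaneous tumours (median 10.07) and between 9.44 and 9.75 in control lungs (median 9.59). All cobalt tumours lay above all control lungs, as did 5 of 6 spontaneous tumours, the exception being spontaneous tumour 6. In cobalt tumours Ern1 was 1.92-fold higher than in control lung (log2 difference 0.94, SE 0.16, 95% interval 0.61 to 1.27, limma adjusted p = 0.000172). In spontaneous tumours it was 1.38-fold higher (0.47, SE 0.16, 95% interval 0.14 to 0.80, adjusted p = 0.0287). The call in spontaneous tumours was lost without control 1, 2 or 3 or without spontaneous tumour 3, 4 or 5, each left out alone, with limma adjusted p of 0.0507 to 0.0694. It was also lost with cyclic loess normalization (0.33, adjusted p = 0.12), with Y-linked RNA as a covariate (0.29, adjusted p = 0.259) and on the arrays with high X-inactivation RNA (0.39, adjusted p = 0.147). Only 2 of the latter arrays are spontaneous tumours.

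Atf6 encodes the sensor that becomes a transcription factor after cleavage. Its brightest probe set lay between 8.17 and 9.30 in cobalt tumours (median 8.55), between 8.24 and 8.64 in spontaneous tumours (median 8.45) and between 9.18 and 9.30 in control lungs (median 9.26). All spontaneous tumours and 5 of 6 cobalt tumours lay below all control lungs, and cobalt tumour 6, at 9.30, lay at the top of the control lungs. The difference from control lung was -0.63 in cobalt tumours (SE 0.16, adjusted p = 0.00441 by limma), or 1.55-fold lower, and -0.77 without cobalt tumour 6. In spontaneous tumours it was -0.78 (SE 0.16, adjusted p = 0.000932), or 1.72-fold lower. The other 2 Atf6 probe sets did not pass the test, at -0.17 and 0.19 in cobalt tumours (adjusted p = 0.354 and 0.501) and -0.15 and 0.24 in spontaneous tumours (adjusted p = 0.407 and 0.379), and the mean of the gene's probe sets gave -0.21 in cobalt tumours (adjusted p = 0.267) and -0.23 in spontaneous tumours (adjusted p = 0.2). The fall therefore belongs to 1 of 3 probe sets.

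Xbp1 encodes the transcription factor that IRE1 activates, and these levels do not tell its spliced from its unspliced RNA. It lay between 12.28 and 12.85 in cobalt tumours (median 12.51), between 12.31 and 13.42 in spontaneous tumours (median 12.53) and between 12.55 and 12.82 in control lungs (median 12.71). The groups overlapped, and the highest value was that of spontaneous tumour 5. The log2 difference from control lung was -0.16 in cobalt tumours (95% interval -0.48 to 0.16, limma adjusted p = 0.463) and -0.03 in spontaneous tumours (-0.34 to 0.29, adjusted p = 0.913).

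Hspa5 encodes BiP, the Hsp70 chaperone of the endoplasmic reticulum, which also holds the sensors inactive. Its level was 12.85 to 13.57 in cobalt tumours (median 13.03), 12.90 to 13.36 in spontaneous tumours (median 13.09) and 13.00 to 13.40 in control lungs (median 13.24). The groups overlapped over most of their range, with cobalt tumour 5 the highest of all arrays. The log2 difference from control lung was -0.15 in cobalt tumours (SE 0.12, 95% interval -0.40 to 0.09, limma adjusted p = 0.337) and -0.13 in spontaneous tumours (SE 0.12, interval -0.38 to 0.11, adjusted p = 0.4). After cyclic loess normalization it was called lower in both, at -0.37 in cobalt tumours (adjusted p = 0.0159) and -0.36 in spontaneous tumours (adjusted p = 0.018). A second probe set of the gene differed by 0.23 in cobalt tumours and 0.16 in spontaneous tumours, and a dimmer one by -0.01 in cobalt tumours and -0.03 in spontaneous tumours, none of which passed the test.

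Hsp90b1 encodes GRP94, the Hsp90 chaperone of the same compartment. It lay between 11.51 and 12.58 in cobalt tumours (median 12.30), between 11.81 and 12.38 in spontaneous tumours (median 12.18) and between 11.61 and 12.11 in control lungs (median 11.92). In cobalt tumours 4 of 6 arrays and in spontaneous tumours 3 of 6 lay above all control lungs, and cobalt tumour 6 lay below them. The difference was 0.24 in cobalt tumours (SE 0.16, limma adjusted p = 0.276) and 0.26 in spontaneous tumours (SE 0.16, adjusted p = 0.23). Without cobalt tumour 6 the first was 0.36 and called (adjusted p = 0.0485). The second probe set of the gene differed by 0.32 in cobalt tumours (adjusted p = 0.0605) and by 0.28 in spontaneous tumours (adjusted p = 0.0982).

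Calr encodes calreticulin, a chaperone that binds the sugars of new glycoproteins and stores calcium. Its level was 12.37 to 13.11 in cobalt tumours (median 12.69), 12.78 to 13.16 in spontaneous tumours (median 12.89) and 12.92 to 13.17 in control lungs (median 13.05). The groups overlapped. It was 1.26-fold lower in cobalt tumours than in control lung (log2 difference -0.34, SE 0.10, limma adjusted p = 0.0185) and differed by -0.12 in spontaneous tumours (SE 0.10, adjusted p = 0.381). The other 2 Calr probe sets had differences of -0.14 and -0.07 in cobalt tumours (adjusted p = 0.347 and 0.721). The mean of the 3 gave -0.18 (adjusted p = 0.21), and the exact permutation test over arrays an adjusted p of 0.054. In spontaneous tumours cyclic loess normalization gave a call of lower (-0.35, adjusted p = 0.0133).

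Pdia4 encodes ERp72, a protein disulfide isomerase that forms and rearranges disulfide bonds. It lay between 8.96 and 10.26 in cobalt tumours (median 9.94), between 9.15 and 10.27 in spontaneous tumours (median 9.59) and between 8.45 and 8.90 in control lungs (median 8.81). Every tumour lay above every control lung, cobalt tumour 6 by the least. It was 2.13-fold higher in cobalt tumours (log2 difference 1.09, SE 0.21, 95% interval 0.65 to 1.52, limma adjusted p = 0.000523) and 1.83-fold higher in spontaneous tumours (0.87, SE 0.21, interval 0.44 to 1.31, adjusted p = 0.00322). Without cobalt tumour 6 the first difference was 1.27. A second, dim probe set of the gene, with a mean level of 5.05, differed by 0.16 in cobalt tumours (adjusted p = 0.338) and by 0.08 in spontaneous tumours (adjusted p = 0.648). Groups did not overlap for Pdia4 and Ern1 in cobalt tumours, 2 of 10 genes against 18.9% of all genes (8.1% with the cobalt tumours above and 10.8% with them below), and for Pdia4 and Atf6 in spontaneous tumours, 2 of 10 against 21.1% (9.21% above and 11.9% below).

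Dnajb9 encodes ERdj4, a co-chaperone of BiP known to restrain IRE1. It lay between 10.71 and 11.80 in cobalt tumours (median 11.13), between 10.32 and 11.23 in spontaneous tumours (median 11.01) and between 10.89 and 11.30 in control lungs (median 11.11). The groups overlapped, with cobalt tumour 5 the highest array and spontaneous tumour 2 the lowest. The difference was 0.07 in cobalt tumours (limma adjusted p = 0.79) and -0.18 in spontaneous tumours (adjusted p = 0.419). Sdf2l1 encodes a partner of BiP and its co-chaperones. It lay between 7.98 and 9.60 in cobalt tumours (median 8.58), between 8.32 and 9.38 in spontaneous tumours (median 9.10) and between 8.31 and 8.94 in control lungs (median 8.62). In spontaneous tumours 4 of 6 arrays lay above all control lungs, with a log2 difference of 0.36 (95% interval -0.09 to 0.81, adjusted p = 0.206), and in cobalt tumours the difference was 0.03 (adjusted p = 0.93), with cobalt tumour 5 at the top and cobalt tumour 6 at the bottom of all arrays.

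Herpud1 encodes a membrane protein of the complex that degrades proteins of the endoplasmic reticulum. It lay between 11.26 and 12.21 in cobalt tumours (median 11.54), between 10.49 and 12.14 in spontaneous tumours (median 11.43) and between 11.65 and 12.17 in control lungs (median 11.84). The groups overlapped, and spontaneous tumour 2 was the lowest array. The difference was -0.22 in cobalt tumours (limma adjusted p = 0.48) and -0.50 in spontaneous tumours (adjusted p = 0.0908). Its second probe set was called lower in spontaneous tumours (-0.56, adjusted p = 0.0378). The first probe set was called there too without spontaneous tumour 5 (-0.65, adjusted p = 0.0201), with cyclic loess normalization (-0.68, adjusted p = 0.0241), with array weights (-0.46, adjusted p = 0.0436) and on the arrays with high X-inactivation RNA, of which 2 are spontaneous tumours (-0.69, adjusted p = 0.0216). It was smaller and not called without spontaneous tumour 2 (-0.32, adjusted p = 0.206) and without spontaneous tumours 2 and 6 together (-0.26, adjusted p = 0.359).

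**Figure D2:**
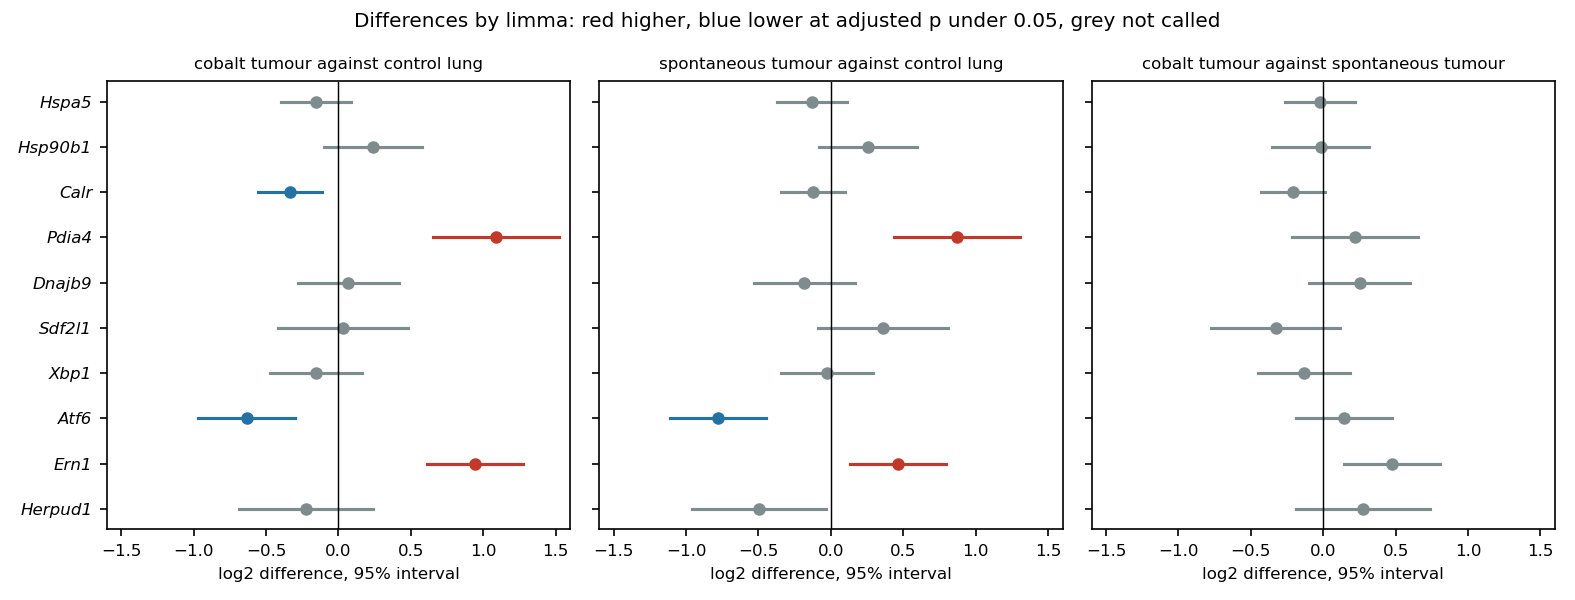
Log2 difference of the 10 genes with its 95% interval, for cobalt tumour against control lung (left), spontaneous tumour against control lung (middle) and cobalt tumour against spontaneous tumour (right). Red points are called higher and blue ones lower by limma, grey ones are not called. Pdia4 and Ern1 lie right of 0 in both comparisons with control lung and no gene is called between the tumours.

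Of the 26 probe sets that carry the symbols of the 10 genes, 16 were not the brightest of their gene. Ern1 has 5, and 2 of the other 4 were called higher in cobalt tumours, by 1.54 (limma adjusted p = 0.000103 over all probe sets) and 0.36 (adjusted p = 0.0433), and 1 of them in spontaneous tumours, by 0.99 (adjusted p = 0.00433). The remaining 2, with mean levels of 4.76 and 5.53, differed by between -0.06 and 0.11. None of the other 3 Xbp1 probe sets and neither of the 2 other Hspa5 probe sets passed the test in either comparison with control lung.

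**Figure D3:**
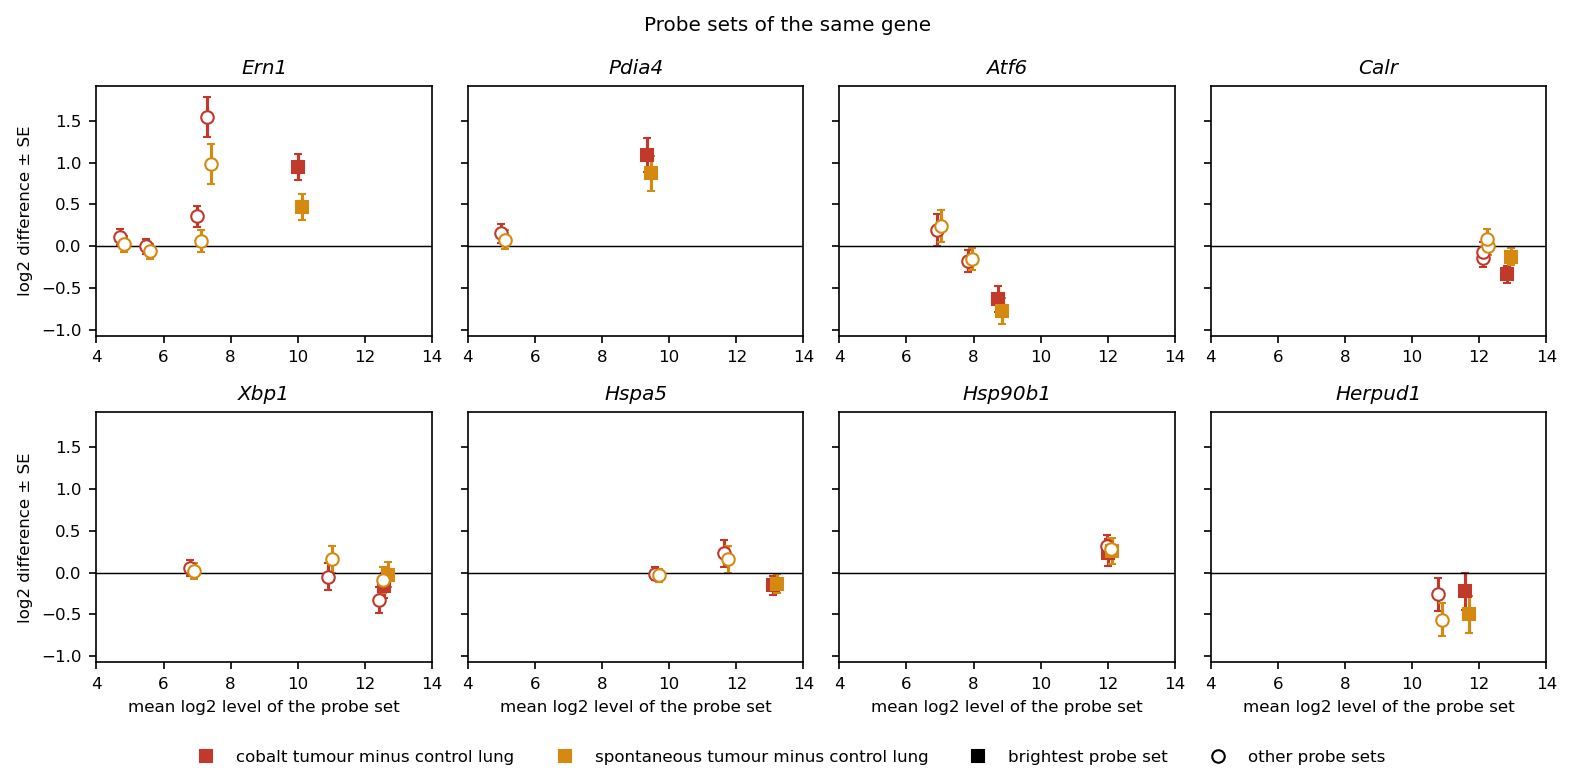
Log2 difference from control lung (± SE) of each probe set against its mean log2 level over 18 arrays, for the 8 genes with several probe sets. Cobalt tumours are red and spontaneous tumours orange, the brightest probe set is a filled square and the others are open circles. The 3 Atf6 probe sets lie apart, while the brighter Ern1 probe sets lie above 0.

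No gene of the 10 was called between cobalt and spontaneous tumours, where limma called 0.0824% of all genes (0.044% higher and 0.0385% lower), and for none of the 10 did the groups stay apart, against 0.616% of all genes (0.192% with the cobalt tumours above and 0.423% with them below). The largest difference was that of Ern1, 1.39-fold higher in cobalt tumours (log2 difference 0.48, SE 0.16, 95% interval 0.14 to 0.81, adjusted p = 0.237, and unadjusted p = 0.0075), with 3 of 6 cobalt tumours above all spontaneous tumours. Its unadjusted limma p was the only one of the 10 under 0.05, and the exact permutation test gave it an unadjusted p of 0.0346 and an adjusted p of 0.517. The share of all genes with an unadjusted p under 0.05 was not computed. For Calr the difference was -0.21 (interval -0.43 to 0.01, adjusted p = 0.458) and for Sdf2l1 -0.33 (-0.78 to 0.12, adjusted p = 0.594). For Hspa5 it was -0.02, with an interval of -0.26 to 0.22, and for Hsp90b1 -0.02, with an interval of -0.36 to 0.32. The 2 comparisons with control lung share the same control arrays.

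For each of the 10 genes the SD was larger in both kinds of tumour than in control lung, a difference that was not tested. The SD over the 6 arrays was 0.21 to 0.53 in cobalt tumours, 0.13 to 0.56 in spontaneous tumours and 0.04 to 0.20 in control lungs. The share of all genes with a larger SD in tumours was not computed. Over all probe sets tumours were also less alike, with a mean r with the own group of 0.953 to 0.976, against 0.982 to 0.990 in control lungs. Whether the larger SD is particular to these genes was not tested. Cobalt tumour 5 was the highest cobalt tumour for 7 of the 10 genes, and spontaneous tumour 5 the highest spontaneous tumour for 8. The mean of the 10 genes was 0.52 above the control mean on cobalt tumour 5 and 0.39 above it on spontaneous tumour 5, and on the other 10 tumours it lay between -0.20 and 0.10. Relative to the control mean, plasma cell markers lay at -0.58 on cobalt tumour 5 (group range -2.22 to 0.63) and -0.81 on spontaneous tumour 5 (-1.62 to 1.14). The alveolar type 2 mean lay at 0.75 on cobalt tumour 5, the lowest of its group, and 0.91 on spontaneous tumour 5 (-0.46 to 1.09). Club and goblet cell markers lay at 0.62 on cobalt tumour 5 (-1.1 to 0.69) and 1.07 on spontaneous tumour 5, the highest of its group. Macrophage markers lay at 1.23 on cobalt tumour 5, the highest of its group, and 1.09 on spontaneous tumour 5 (0.38 to 2.32). The part of these cell types in the levels was not tested. Spontaneous tumour 5 was also the highest of its group for 5 of the 5 lists of other secretory pathway genes described next, and cobalt tumour 5 for 4 of 5.

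**Figure D4:**
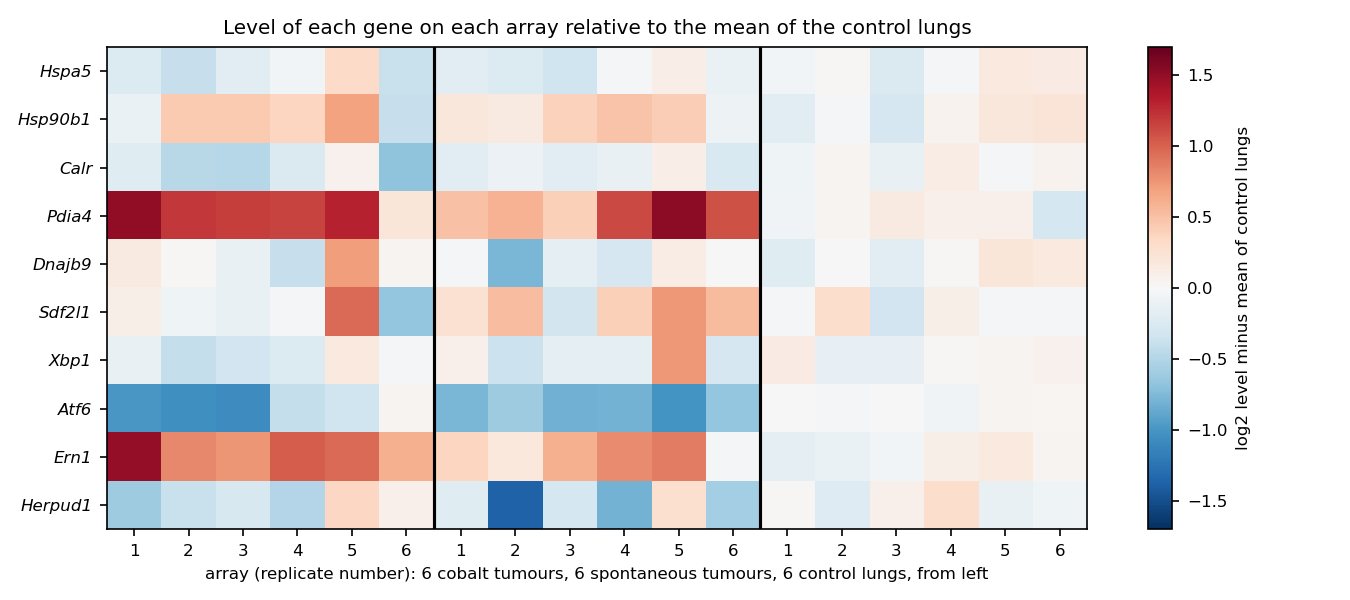
Log2 level of the 10 genes on each array minus the mean of the control lungs, with the 6 cobalt tumours, 6 spontaneous tumours and 6 control lungs from left to right. Red is higher and blue lower than the control mean. Columns of cobalt tumour 5 and spontaneous tumour 5 are red for most genes, the Pdia4 row is red and the Atf6 row mostly blue across the tumours.

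Within the groups, several chaperones were correlated from array to array, less closely without the 2 arrays just named. Taking each value's deviation from its group mean over the 18 arrays, which share their normalization, Pearson's r was 0.82 between Calr and Sdf2l1 (Spearman's rho 0.70), 0.80 between Hspa5 and Sdf2l1 (rho 0.67) and 0.77 between Hspa5 and Calr (rho 0.61). It was 0.76 between Xbp1 and Herpud1 (rho 0.60), 0.69 between Dnajb9 and Herpud1 (rho 0.45) and -0.58 between Pdia4 and Atf6 (rho -0.32). Without cobalt tumour 5 and spontaneous tumour 5, r was 0.61 between Calr and Sdf2l1, 0.55 between Hspa5 and Sdf2l1, 0.47 between Hspa5 and Calr, 0.53 between Xbp1 and Herpud1, 0.53 between Dnajb9 and Herpud1 and -0.65 between Pdia4 and Atf6. Of 45 pairs, 15 had an r above 0.5, and 6 did without those arrays, a setting chosen after seeing the data, the median r being 0.34 over all 18 arrays and 0.09 without those 2. The share of pairs among all genes with an r above 0.5 was not computed, so that these counts have no background beside them. Among 12128 other genes, leaving out the dim ones, those most like Hspa5 by this r were Manf (0.87), Gjb2 (0.85), Tmem199 (0.81), Sdf2l1 (0.80) and Ttll1 (0.80). Those most like Xbp1 were Smoc1 (0.88), Rnf144b (0.88), Scrn3 (0.83), Sec24d (0.82) and Serp1 (0.82). Spearman's rho was 0.62 to 0.82 for the genes named with Hspa5 and 0.53 to 0.83 for those named with Xbp1. These rankings were not computed without cobalt tumour 5 and spontaneous tumour 5.

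Other genes of the secretory pathway were followed in 5 lists, in which 37 of 148 genes were called higher and 17 lower in cobalt tumours, and 42 higher and 16 lower in spontaneous tumours. Higher calls were 68.5% of the calls in cobalt tumours and 72.4% in spontaneous tumours, but 46.2% (24 higher, 28 lower) and 49.1% (26 higher, 27 lower) after cyclic loess normalization. Over all genes, 2679 were called higher and 3504 lower in cobalt tumours, and 2975 higher and 3320 lower in spontaneous tumours. With cyclic loess normalization these counts were 2361 and 3851 in cobalt tumours and 2476 and 3540 in spontaneous tumours. Higher calls thus became a smaller part of the calls over all genes too. For the listed genes the median log2 difference was 0.11 in cobalt tumours, against -0.03 over all genes, of which 14.7% were called higher and 19.3% lower. It was 0.14 in spontaneous tumours, against -0.03 over all genes, of which 16.4% were called higher and 18.2% lower. Between the kinds of tumour 0 of the 148 were called in either direction.

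Among 44 further folding enzymes and chaperones, 11 rose and 6 fell in cobalt tumours, and 13 rose and 4 fell in spontaneous tumours. The prolyl isomerase Fkbp11 was 2.72-fold higher in cobalt tumours (7.97 ± 0.69 against 6.52 ± 0.22 in control lung, SD, n = 6 each, limma adjusted p = 0.00156) and 2.79-fold higher in spontaneous tumours (adjusted p = 0.00131). Cnpy2 was 1.79-fold higher in cobalt tumours and 2.3-fold higher in spontaneous tumours, and Mogs, the glucosidase that starts trimming the sugars of new glycoproteins, 2.06-fold higher in cobalt tumours and 1.75-fold higher in spontaneous tumours. The oxidase Ero1a, which reoxidises disulfide isomerases, rose in spontaneous tumours (1.85-fold, adjusted p = 0.0121) and was at 10.14 ± 0.50 in cobalt tumours against 9.73 ± 0.11 in control lungs (adjusted p = 0.248). Genes that fell included Rcn3, a calcium-binding protein of the secretory pathway, 2.72-fold lower in cobalt tumours and 2.37-fold lower in spontaneous tumours, and, in cobalt tumours, Serpinh1, the collagen chaperone (1.57-fold lower, adjusted p = 0.0354). Crtap, a partner in collagen hydroxylation, was 1.29-fold lower in spontaneous tumours (adjusted p = 0.0375). Fibroblast markers moved with these, 0 of 8 higher and 4 lower in cobalt tumours and 2 higher and 4 lower in spontaneous tumours, with a mean -2.67 to -0.31 from the control mean in cobalt tumours and -2.70 to -0.66 from it in spontaneous tumours, and their part in the result was not tested.

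Among 19 other sensors and factors of the response, 4 rose and 3 fell in cobalt tumours, and 3 rose and 4 fell in spontaneous tumours. Creb3l1, a membrane-held factor related to ATF6, was 4.45-fold higher in cobalt tumours (10.36 ± 0.89 against 8.20 ± 0.25 in control lung, SD, n = 6 each, limma adjusted p = 0.000434) and 2.68-fold higher in spontaneous tumours (9.63 ± 0.88, adjusted p = 0.0102). Mbtps2, the protease that makes the second cut in ATF6, was 1.36-fold higher in cobalt tumours and 1.49-fold higher in spontaneous tumours. Ddit3, which encodes CHOP and is known as a target of the PERK branch, was 1.94-fold lower in cobalt tumours (8.36 ± 0.31 against 9.31 ± 0.15, adjusted p = 2.68e-05) and 1.87-fold lower in spontaneous tumours (8.41 ± 0.20, adjusted p = 4.5e-05). Ppp1r15a, which reverses the PERK signal, was 1.5-fold lower in cobalt tumours and 1.63-fold lower in spontaneous tumours, while Trib3, a pseudokinase also induced by this branch, was 2.01-fold higher in cobalt tumours and 1.65-fold higher in spontaneous tumours. Chosen after their values were seen, the PERK gene Eif2ak3 was 1.31-fold higher in cobalt tumours (adjusted p = 0.0436) and at 9.58 ± 0.35 in spontaneous tumours against 9.51 ± 0.16 in control lungs (adjusted p = 0.734), and the ATF6 relative Atf6b was at 7.98 ± 0.28 in cobalt tumours and 7.76 ± 0.30 in spontaneous tumours, against 7.73 ± 0.18 in control lungs (adjusted p = 0.196 and 0.878).

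Of 27 genes for degradation of proteins of the endoplasmic reticulum, 6 rose and 2 fell in cobalt tumours, and 7 rose and 3 fell in spontaneous tumours. The ubiquitin ligase Rnf5 was 2.06-fold higher in cobalt tumours (limma adjusted p = 0.000662) and 1.83-fold higher in spontaneous tumours (adjusted p = 0.00276), and Erlec1, a lectin that recognises misfolded glycoproteins, 1.48-fold higher in cobalt tumours and 1.59-fold higher in spontaneous tumours. The ubiquitin-conjugating enzyme Ube2g2 was 1.36-fold lower in cobalt tumours and 1.53-fold lower in spontaneous tumours. In translocation and N-glycosylation 9 of 32 rose and 2 fell in cobalt tumours, and 12 rose and 2 fell in spontaneous tumours. The channel subunit Sec61a1 was 2-fold higher in cobalt tumours (11.83 ± 0.28 against 10.84 ± 0.11, adjusted p = 6.38e-05) and 1.74-fold higher in spontaneous tumours (11.64 ± 0.35, adjusted p = 0.000473), with the translocon-associated subunits Ssr2 and Ssr4 1.72-fold to 1.95-fold higher in both, while the oligosaccharyltransferase subunit Stt3b was 1.29-fold lower in cobalt tumours and 1.35-fold lower in spontaneous tumours. Of 26 genes of transport to the Golgi, 7 rose and 4 fell in cobalt tumours and 7 rose and 3 fell in spontaneous tumours. Kdelr3 and Kdelr1, receptors that return chaperones such as BiP from the Golgi, were 1.81-fold and 1.42-fold higher in cobalt tumours (adjusted p = 0.012 and 0.0004) and 1.97-fold and 1.47-fold higher in spontaneous tumours (adjusted p = 0.00514 and 0.000201).

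**Figure D5:**
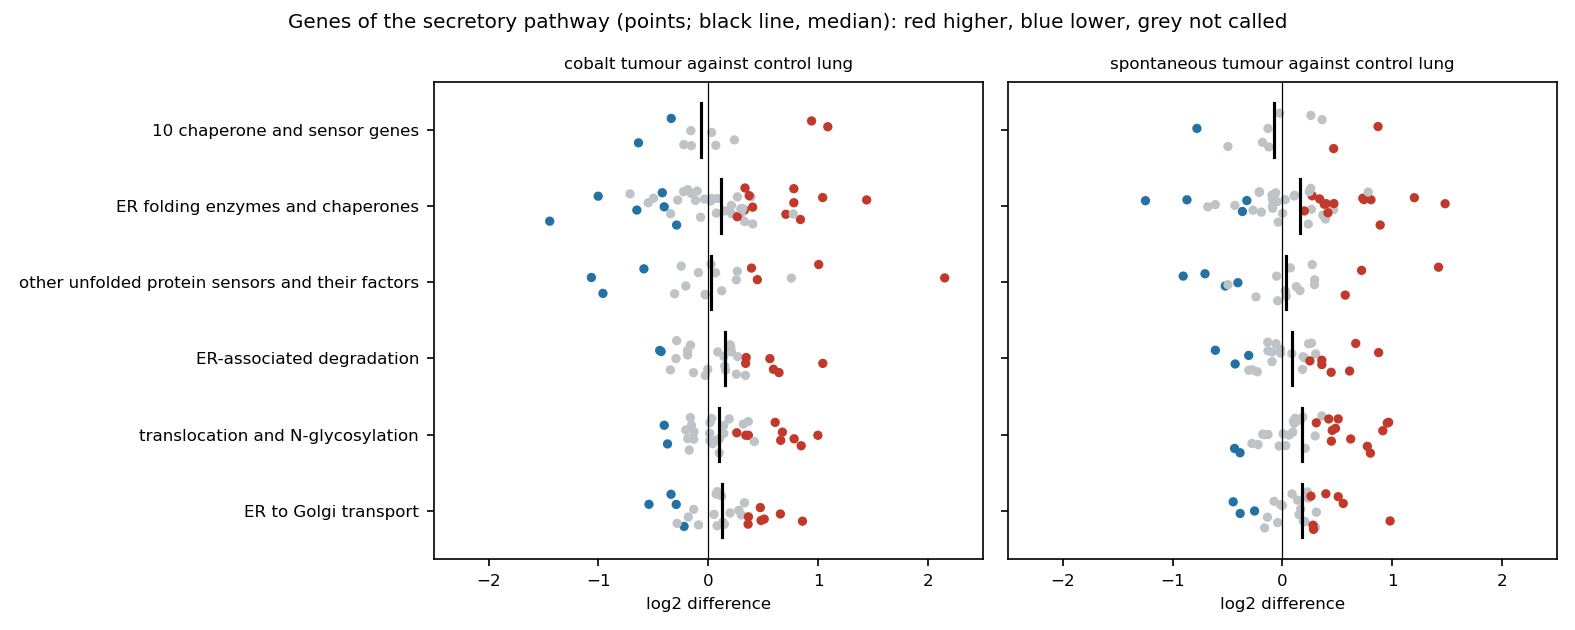
Log2 difference from control lung of the 10 genes and of the genes in 5 lists of the secretory pathway (points, spread vertically at random), for cobalt tumours (left) and spontaneous tumours (right), with the median of each list as a black line. Red genes are called higher, blue ones lower and grey ones are not called. Medians of the lists lie between 0.03 and 0.18, and calls fall on both sides of 0 in every list.

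Markers of other cell types moved with the same comparisons. Endothelial markers fell, 8 of 8 in each kind of tumour, with a mean -4.12 to -1.11 from the control mean in cobalt tumours and -3.87 to -2.33 in spontaneous tumours, against -0.19 to 0.17 in control lungs. Smooth and heart muscle markers fell too, 7 of 7 in each, and 6 of 8 alveolar type 1 markers did. Alveolar type 2 markers rose, 7 of 9 in cobalt tumours and 4 of 9 in spontaneous tumours. Of 8 macrophage markers 1 rose in cobalt tumours, with means of -0.19 to 1.23, and 5 rose in spontaneous tumours, with means of 0.38 to 2.32, and plasma cell markers were 1 higher and 2 lower of 8 in cobalt tumours and 1 higher and 1 lower in spontaneous tumours. Club and goblet cell markers were 3 higher and 3 lower of 9 in cobalt tumours and 3 higher and 2 lower in spontaneous tumours, while T and B cell markers fell in 5 of 6 cases in each kind of tumour and mast cell markers in 0 of 5 in cobalt tumours and 1 of 5 in spontaneous tumours. Among the cobalt tumours, cobalt tumour 6 lay nearest to the control mean for Pdia4, Atf6, Ern1, Xbp1 and Herpud1. For Calr (12.37), Sdf2l1 (7.98) and Hsp90b1 (11.51) it was instead the lowest of all 18 arrays. Its endothelial mean was the least low of the cobalt tumours, at -1.11. The part of these cell types in the levels of the 10 genes was not tested.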

How the data were processed

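The values are on the log2 scale as the authors deposited them; RMA is named by the submitters' processing notes, without a version. The files name no scanner or detection values, so signal over background is unknown, and RMA can shrink differences of dim or very bright probe sets. Among 45101 probe sets the platform annotation pairs 34945 with a single symbol, giving 18193 genes, each represented by its brightest probe set over 18 arrays. Symbols of 34741 were matched to RefSeq genes of GRCm38.p6.

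limma 3.58.1 in R 4.3.3 was fitted (eBayes after lmFit) over all 18 arrays with group as the only factor, two-sided, with Benjamini-Hochberg adjustment over the 18193 genes at 0.05. The design text states the comparisons with control lung, made with ORIOGEN, and the comparison of the tumours was added. Tested on simulated data of the spontaneous tumour comparison with 18193 genes, limma recovered 77% of 100 genes changed by 1 log2 unit and 97% of 100 changed by 2. It also made 13 false calls. In the data far more genes were called (34.6%), and most differences of the 10 genes were under 1 log2 unit, so that these shares need not hold there. Exact permutation tests used 924 assignments, so that the smallest p they can give is 0.00216. Of 152 entries in the 5 secretory pathway lists and 79 in 10 cell type lists, 4 and 3 were not matched and are not analysed here.

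The members and lists were chosen with earlier results of these data known. Named from each list were up to 3 genes per direction and comparison with the largest called differences, and not all are printed. Alternatives were the mean of probe sets, a filter that removed the 6064 dimmest genes, cyclic loess normalization, trend and robust options, array weights, the 12 arrays compared, the replicate block, Y-linked RNA as a covariate, arrays with high X-inactivation RNA, spontaneous tumours 2 and 6 left out, each array left out, other probe sets and permutation.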

Additional observations from a re-analysis of the deposited data

Results flagged for a closer look

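Among 30 groups of 6 arrays, 10 genes in 3 groups, 1 held an array far from the rest of its group, by a rule that chance meets in about 1 of 20 groups. Pdia4 on cobalt tumour 6 was at 8.96, while the nearest cobalt tumour was at 9.89 and the highest at 10.26.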

How the results depend on the processing

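The count of the 10 genes called higher in spontaneous tumours, 2 as reported, was 1 with cyclic loess normalization, with Y-linked RNA as a covariate and on arrays with high X-inactivation RNA. The count called lower there, 1 as reported, was 4 with cyclic loess normalization, 0 with the mean of all probe sets, and 2 with array weights and on arrays with high X-inactivation RNA. In cobalt tumours the count called lower, 2 as reported, was 3 with cyclic loess normalization, 0 with the mean of all probe sets and 1 by the exact permutation test. Cyclic loess normalization left 24 higher and 28 lower of the secretory pathway genes in cobalt tumours and 26 higher and 27 lower in spontaneous tumours. Of all genes it left 2361 higher and 3851 lower in cobalt tumours and 2476 higher and 3540 lower in spontaneous tumours. Leaving out 1 array gave 1 to 2 genes called higher and 1 to 2 called lower in spontaneous tumours. Between the tumours the number of all genes called was 15 as reported. It was 0 on arrays with high X-inactivation RNA, of which 2 are spontaneous tumours, 65 without spontaneous tumours 2 and 6, and 82 without cobalt tumour 6. The exact permutation test also gave 0. Its p cannot lie under 0.00216, which only genes with groups that do not overlap can reach (112 of 18193). That 0 was thus nearly fixed in advance and does not bear on the 15. Differences that changed sign were small. In cobalt tumours against control lung Dnajb9 was at -0.071 and Sdf2l1 at -0.027 with cyclic loess normalization, and Hspa5 at 0.021 with the mean of probe sets. In spontaneous tumours Xbp1 was at 0.016 with the mean of probe sets and at 0.13 without spontaneous tumours 2 and 6. Between the tumours Hsp90b1 was at 0.0035 with cyclic loess normalization, 0.0095 with the mean of probe sets, 0.0039 with array weights and 0.096 on arrays with high X-inactivation RNA, where Pdia4 was at -0.14 and Xbp1 at 0.073, and Hspa5 was at 0.022 with the mean of probe sets. With 1 array left out, Xbp1 ran from -0.18 to 0.043 in spontaneous tumours, and in cobalt tumours Dnajb9 ran from -0.058 to 0.16 and Sdf2l1 from -0.16 to 0.17. Between the tumours Hspa5 ran from -0.12 to 0.028, Hsp90b1 from -0.11 to 0.11 and Xbp1 from -0.20 to 0.020. The causes were not tested. Arrays with the same replicate number did not deviate together (2 of 18 pairs had r over 0.1), and the fit with the replicate block gave the same counts of the 10 genes, 2 higher and 2 lower in cobalt tumours and 2 higher and 1 lower in spontaneous tumours.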
